A study of Mus musculus with 18 samples.

Results

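The 49 genes described here encode the urea cycle and the breakdown of amino acids in the liver. They were chosen by gene symbol, and all 49 were found among the 56691 genes of the deposited table and passed the filter on low counts, so that all stand among the 14595 genes tested. They fall into 10 pathways: the urea cycle with its carriers (8 genes), glutamate and transamination (6), tyrosine (4), tryptophan and kynurenine (5), serine, threonine and glycine (3), histidine (4), proline and ornithine (4), branched-chain amino acids (6), methionine and cysteine (8) and lysine (1). Each of 3 groups had 6 RNA sequencing libraries of liver, all from WT C57BL/6 mice. The IR-Ori group had ischemia and reperfusion with oridonin, a plant diterpenoid; none of the sources used here gives its dose, route or timing. The IR group had the same injury without oridonin: clips on the portal triad stopped blood flow to the median and left lobes, about 70% of the liver, for 1 h, followed by 6 h of reperfusion. The sham group was anaesthetised and had the abdomen opened only. No label gives the age or sex of the mice, the lobe sampled, or whether a group's 6 libraries are from different animals, and the p-values therefore reflect the spread between these libraries, which may be technical.

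Amino acid breakdown takes off the amino group, mostly by transamination to glutamate, and passes the carbon skeleton to glucose, ketone or energy metabolism. The freed ammonia is toxic and is turned into urea by the urea cycle, which starts in the mitochondria of periportal hepatocytes. Hepatocytes express most of these enzymes far above other cells, and many of the genes answer to glucagon, glucocorticoids and feeding.

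Promoter sequences are shown for the 3 genes that passed the test in any comparison, Uroc1, Ivd and Afmid, and for Ftcd, which encodes a later step of histidine breakdown than Uroc1. They are the 250 bases before and 50 bases after a RefSeq transcript start (RefSeq, build GRCm38.p6), written 5′ to 3′ with each CpG dinucleotide in capitals, to show how unlike the 4 windows are.
Uroc1, chr6:90333039-90333338, plus strand: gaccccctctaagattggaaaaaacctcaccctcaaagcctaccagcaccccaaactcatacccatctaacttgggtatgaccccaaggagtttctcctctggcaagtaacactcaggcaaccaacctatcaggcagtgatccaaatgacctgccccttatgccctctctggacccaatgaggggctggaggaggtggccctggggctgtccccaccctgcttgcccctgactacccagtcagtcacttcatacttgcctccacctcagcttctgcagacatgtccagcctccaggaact
Ftcd, chr10:76575398-76575697, plus strand: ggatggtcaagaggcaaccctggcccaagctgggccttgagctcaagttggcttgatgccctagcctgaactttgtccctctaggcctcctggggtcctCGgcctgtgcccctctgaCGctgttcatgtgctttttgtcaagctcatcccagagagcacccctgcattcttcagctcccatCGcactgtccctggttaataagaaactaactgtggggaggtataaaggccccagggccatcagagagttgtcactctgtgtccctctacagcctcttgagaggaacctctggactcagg
Ivd, chr2:118861744-118862043, plus strand: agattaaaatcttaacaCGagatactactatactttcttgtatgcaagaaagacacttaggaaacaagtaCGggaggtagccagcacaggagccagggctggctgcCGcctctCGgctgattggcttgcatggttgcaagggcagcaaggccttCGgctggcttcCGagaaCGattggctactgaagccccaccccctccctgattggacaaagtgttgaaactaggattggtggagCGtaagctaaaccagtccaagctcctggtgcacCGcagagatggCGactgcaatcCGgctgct
Afmid, chr11:117825669-117825968, plus strand: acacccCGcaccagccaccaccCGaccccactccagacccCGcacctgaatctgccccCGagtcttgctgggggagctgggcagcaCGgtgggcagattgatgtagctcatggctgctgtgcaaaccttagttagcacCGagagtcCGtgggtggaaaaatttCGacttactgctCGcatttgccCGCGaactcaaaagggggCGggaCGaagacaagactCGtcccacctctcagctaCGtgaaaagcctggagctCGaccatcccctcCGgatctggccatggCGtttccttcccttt
The Uroc1 window held 0 CpG, the Ftcd window 3, the Ivd window 11 and the Afmid window 18. The median was 11 over the 40 windows found for 37 of the 49 genes and 7 over all 32851 windows. Literal matches were sought on both strands for 8 motifs. The windows of Uroc1, Ivd and Afmid held none of them, and that of Ftcd held TATAAA and the core of the cyclic AMP response element, TGACG. The TATA motif was in 12.5% of the 40 windows and 13.6% of all windows. TGACG, which also lies inside the full element, was in 15% of the 40 and 20.8% of all windows, and the full element TGACGTCA in 0% and 1.79%. The C/EBP motif TTGCNNAA was in 10% of the 40 windows and 10.8% of all, the AP-1 motif TGANTCA in 10% and 7.81%, the palindromic glucocorticoid response element in 2.5% (Gnmt) and 0.475%, the amino acid response motif TGATGNAAT in 0% and 0.965%, and the palindromic HNF1 motif in 0% and 0.00913%. A match is a description of these letters and says nothing about binding.

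Total counts ranged from 12449529 to 19798188 per library. Mitochondrially encoded genes took 14.1 to 32.0% of the counts in IR-Ori libraries, 6.52 to 42.9% in IR libraries and 10.3 to 42.8% in sham libraries. The deposited FPKM (fragments per kilobase of exon, scaled to the library total) divide by a total that includes those genes, so a second level, nuclear FPKM, was computed over nuclear genes alone. Of the hepatocyte markers 0 of 7 tested changed in any comparison, and their summed level was 51263 to 60903 nuclear FPKM in IR-Ori, 38320 to 53569 in IR and 34286 to 62824 in sham. All 7 neutrophil markers tested rose in IR against sham, with sums of 8.85 to 90 nuclear FPKM in IR-Ori, 68.4 to 350 in IR and 4.37 to 35.9 in sham. Of 8 monocyte and macrophage markers 5 rose, with sums of 22.0 to 42.5 in IR-Ori, 38.4 to 132 in IR and 25.5 to 47.0 in sham, and 0 of 6 Kupffer cell markers changed. In the same comparison 2 of 6 sinusoidal endothelial, 1 of 7 stellate cell and 1 of 5 cholangiocyte markers rose, beside 5.52% of all genes. In IR-Ori against IR, 5 of the 8 monocyte and macrophage, 1 of the 7 neutrophil and 1 of the 5 cholangiocyte markers fell, beside 3.01% of all genes. In IR-Ori against sham 0 of these markers changed. Of 6 B and T cell markers only 2 passed the filter on low counts, and 0 changed in any comparison. The 5 erythroid markers had 0 calls, with sums of 97.4 to 153 nuclear FPKM in IR-Ori, 167 to 416 in IR and 33.8 to 295 in sham. Among the markers with a row, 0 genes were at 0 in all libraries. The mean log2 nuclear FPKM of the 49 genes was lowest of the 18 libraries in IR5, at 6.02, against 6.19 to 6.49 in the other IR libraries.

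The comparison of IR with sham asks what ischemia and reperfusion do to these genes. In IR livers 3 of the 49 fell and 0 rose: Uroc1 of histidine breakdown, Ivd of leucine breakdown and Afmid of the kynurenine pathway (edgeR quasi-likelihood test, adjusted p under 0.05 over all genes). That is 6.12% of the 49 lower and 0% higher, beside 2.36% lower and 5.52% higher of all genes tested. At an unadjusted p under 0.05, 15 of the 49 were lower and 0 higher, beside 9.86% lower and 13.6% higher of all genes. DESeq2 and limma also called 0 higher. The log2 fold change was negative for 39 of the 49, with a median of -0.26, against 0.00 over all genes. In 23 of the 49 the 95% interval lay between -1 and 1 on the log2 scale, and in 50.6% of all genes. Less RNA per hepatocyte and fewer hepatocytes in the tissue cannot be told apart in such bulk samples, and the part of leukocyte RNA, whose markers rose, was not tested.

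**Figure D1:**
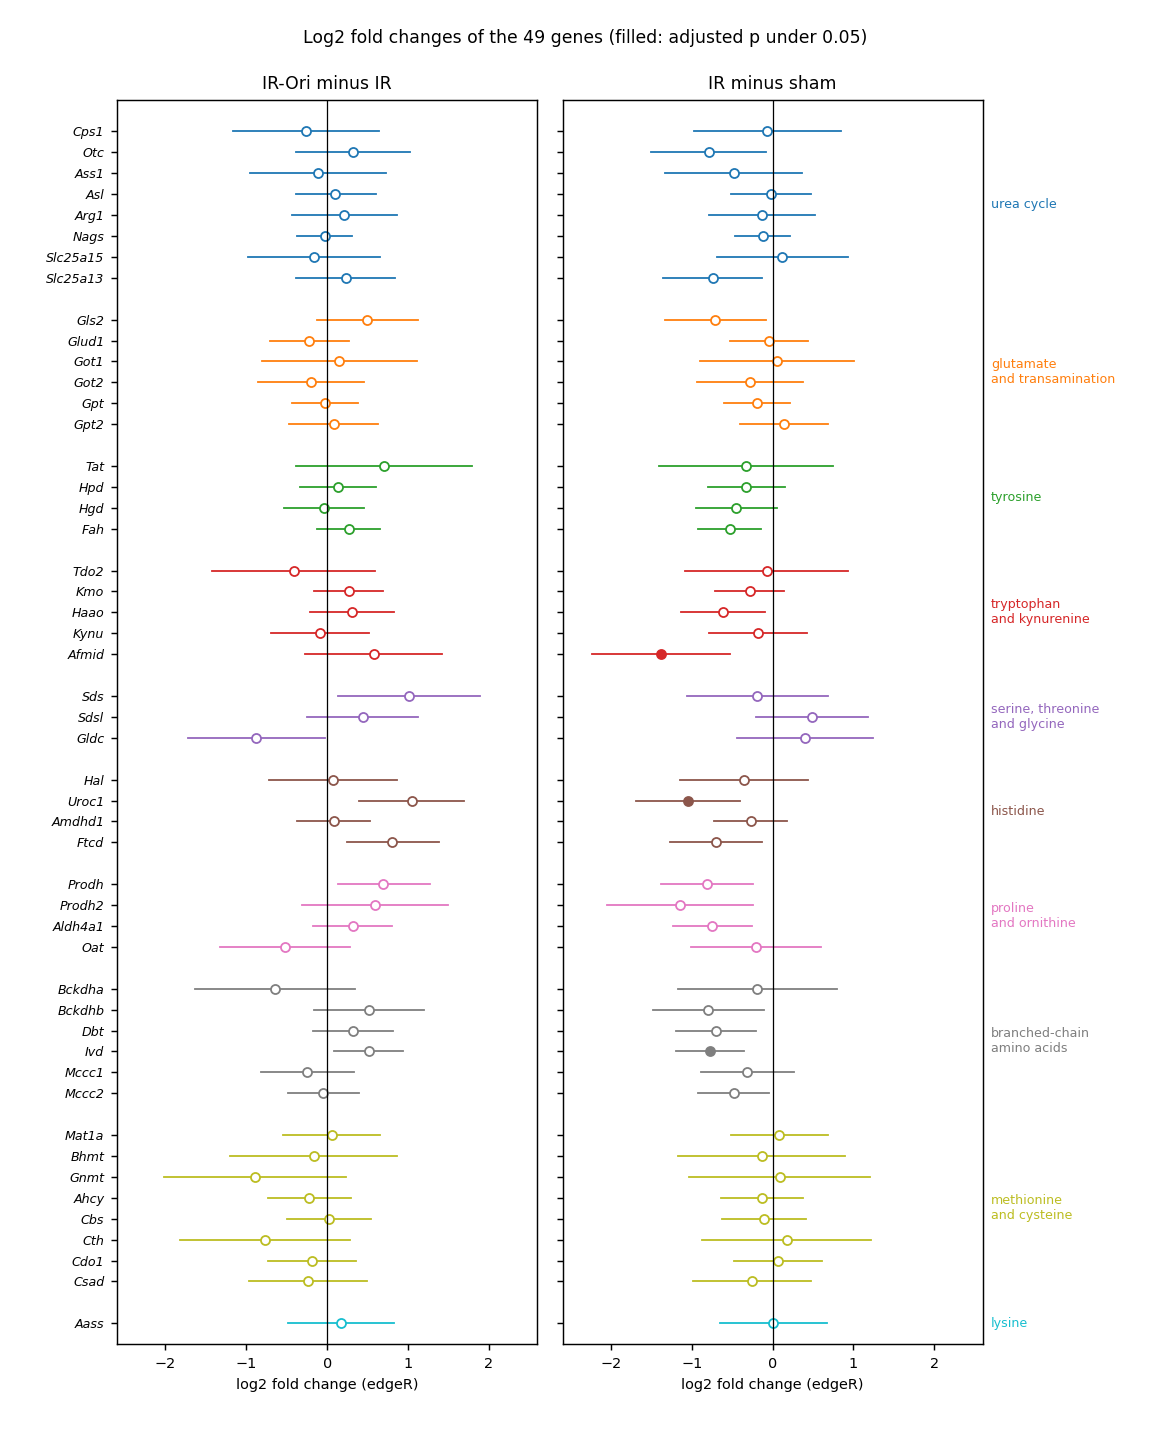
Log2 fold changes of the 49 genes from edgeR with 95% intervals, IR-Ori minus IR on the left and IR minus sham on the right, coloured by pathway. Filled points passed an adjusted p of 0.05: Afmid, Uroc1 and Ivd in IR minus sham, and none in IR-Ori minus IR. All 6 branched-chain, all 4 histidine and all 4 proline and ornithine genes lie left of 0 in IR minus sham, and the methionine and cysteine genes lie around 0.

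Histidine is broken down by histidase (Hal), urocanase (Uroc1), imidazolonepropionase (Amdhd1) and the folate enzyme Ftcd. Uroc1 (ENSMUSG00000034456, GRCm39 chr6:90310266-90341533, plus strand) had a lowest, median and highest level of 74.5, 105 and 134 FPKM in IR-Ori, 23.8, 59.2 and 70.6 FPKM in IR, and 80.7, 103 and 131 FPKM in sham. Every IR library lay below every sham and every IR-Ori library, and the libraries IR4 (24.4 FPKM) and IR5 (23.8 FPKM) were far below the other 4 IR libraries (55.6 to 70.6 FPKM). Uroc1 fell in IR against sham, with a log2 fold change of -1.05 ± 0.31 (SE, n = 6 each; adjusted p = 0.0413). The call was lost in 8 of the 12 fits that left out a single library (sham2 to sham5 and IR2 to IR5), with an adjusted p of up to 0.0855. Ftcd stood at 115, 172 and 204 FPKM (lowest, median, highest) in IR-Ori, 60.5, 91.3 and 147 in IR and 98.7, 143 and 213 in sham, with overlapping groups, and a log2 fold change of -0.70 ± 0.27 in IR against sham that did not pass (adjusted p = 0.122). Hal averaged 26.9 ± 11.8 FPKM in IR-Ori, 25.3 ± 13.4 in IR and 32.6 ± 13.6 in sham (SD, n = 6 each), and Amdhd1 50.5 ± 7.5, 48.1 ± 10.9 and 57.4 ± 13.3. The spread within groups covers these differences for Hal and Amdhd1. Of the 4 histidine genes 1 fell, 4 had negative fold changes and their median was -0.53.

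Branched-chain amino acids are oxidised by a dehydrogenase complex (Bckdha, Bckdhb, Dbt) and, for leucine, by isovaleryl-CoA dehydrogenase (Ivd) and methylcrotonyl-CoA carboxylase (Mccc1, Mccc2). Ivd (ENSMUSG00000027332, GRCm39 chr2:118692435-118713390, plus strand) had a lowest, median and highest level of 20.1, 31.8 and 39.1 FPKM in IR-Ori, 14.9, 21.1 and 25.9 in IR and 28.9, 35.8 and 39.9 in sham. All 6 IR libraries lay below all 6 sham libraries, and IR-Ori overlapped both groups. Ivd fell in IR against sham by a log2 fold change of -0.77 ± 0.20 (SE, n = 6 each; adjusted p = 0.0245), and the call was lost without IR4 or without IR5 (adjusted p of up to 0.0591). Dbt, the transacylase subunit of the complex, was at 18.8 to 36.0 FPKM in IR-Ori, 12.8 to 25.9 in IR and 26.8 to 40.5 in sham, and its log2 fold change of -0.70 ± 0.23 did not pass (adjusted p = 0.0729). The other 4 had log2 fold changes of -0.79 ± 0.33 (Bckdhb), -0.48 ± 0.21 (Mccc2), -0.31 ± 0.28 (Mccc1) and -0.19 ± 0.47 (Bckdha), with adjusted p from 0.145 up. Of the 6 genes 1 fell, 6 had negative fold changes and the median was -0.59.

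Tryptophan is opened by Tdo2, and Afmid, Kmo, Kynu and Haao carry the product down the kynurenine pathway. Afmid, arylformamidase (ENSMUSG00000017718, GRCm39 chr11:117716750-117730734, plus strand), had a lowest, median and highest level of 1.9, 4.01 and 11.2 FPKM in IR-Ori, 1.97, 2.83 and 6.99 in IR and 6.33, 8.05 and 12.8 in sham, from 92 to 634 counts per library. In IR, 5 of 6 libraries lay at or below 2.89 FPKM and only IR6 (6.99 FPKM) reached the sham range. IR-Ori held 3 libraries at 1.9 to 2.47 FPKM and 3 at 5.55 to 11.2 FPKM. Afmid fell in IR against sham by a log2 fold change of -1.38 ± 0.41 (SE, n = 6 each; adjusted p = 0.0433), a call lost without any of sham3 to sham5 or IR2 to IR5 (adjusted p of up to 0.106). The gene table places the start of Afmid (117716750) inside Tk1, thymidine kinase, on the opposite strand, whose coordinates run to 117716918. Tk1 also fell, by -1.68 ± 0.29 (adjusted p = 0.00237), and since no source used here gives the strand setting of the counting, reads of the overlap cannot be assigned to either gene. Haao had -0.62 ± 0.25 (adjusted p = 0.134), and Kmo, Kynu and Tdo2 had -0.29 ± 0.20, -0.18 ± 0.29 and -0.07 ± 0.48. Of the 5 genes 1 fell and the median was -0.29.

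Proline and ornithine pass through proline dehydrogenase (Prodh), the related enzyme Prodh2, ornithine aminotransferase (Oat) and Aldh4a1, which makes glutamate. Aldh4a1 (ENSMUSG00000028737, GRCm39 chr4:139350177-139377001, plus strand) was at 14.5, 19.0 and 29.9 FPKM (lowest, median, highest) in IR-Ori, 11.5, 16.8 and 20 in IR and 18.9, 23.7 and 36.6 in sham. IR and sham overlapped by 2 IR and 2 sham libraries, and the log2 fold change of -0.75 ± 0.23 missed the threshold (adjusted p = 0.0529). Prodh had -0.81 ± 0.27 (adjusted p = 0.0752) and Prodh2 -1.15 ± 0.43 (adjusted p = 0.111). Oat, at 180 ± 109 FPKM in IR-Ori, 276 ± 75.4 in IR and 298 ± 117 in sham, had -0.20 ± 0.38. Of these 4, 0 passed and the median was -0.78, the lowest of the 10 pathways.

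Tyrosine is broken down by Tat, Hpd, Hgd and Fah. Fah, fumarylacetoacetase (ENSMUSG00000030630, GRCm39 chr7:84234367-84255930, minus strand), was at 193, 220 and 253 FPKM (lowest, median, highest) in IR-Ori, 126, 196 and 227 in IR and 240, 249 and 301 in sham. All IR libraries lay below all sham libraries, with a log2 fold change of -0.53 ± 0.19 (adjusted p = 0.0906). Tat, the aminotransferase that is a classic glucocorticoid target, varied far more, at 964 ± 649 FPKM in IR-Ori, 621 ± 290 in IR and 744 ± 474 in sham. Its log2 fold change of -0.32 ± 0.52 is well within that spread. Over all 49 genes, 4 were lower in every IR library than in every sham library by deposited FPKM (Uroc1, Ivd, Fah and Dbt, against 1.13% of all genes) and 0 were higher in every one (against 2.04%). By nuclear FPKM 2 were lower, Afmid and Aldh4a1 (against 1.17% of all genes), and 0 higher (against 2.45%), so which genes separate the groups changes with the total used.

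**Figure D2:**
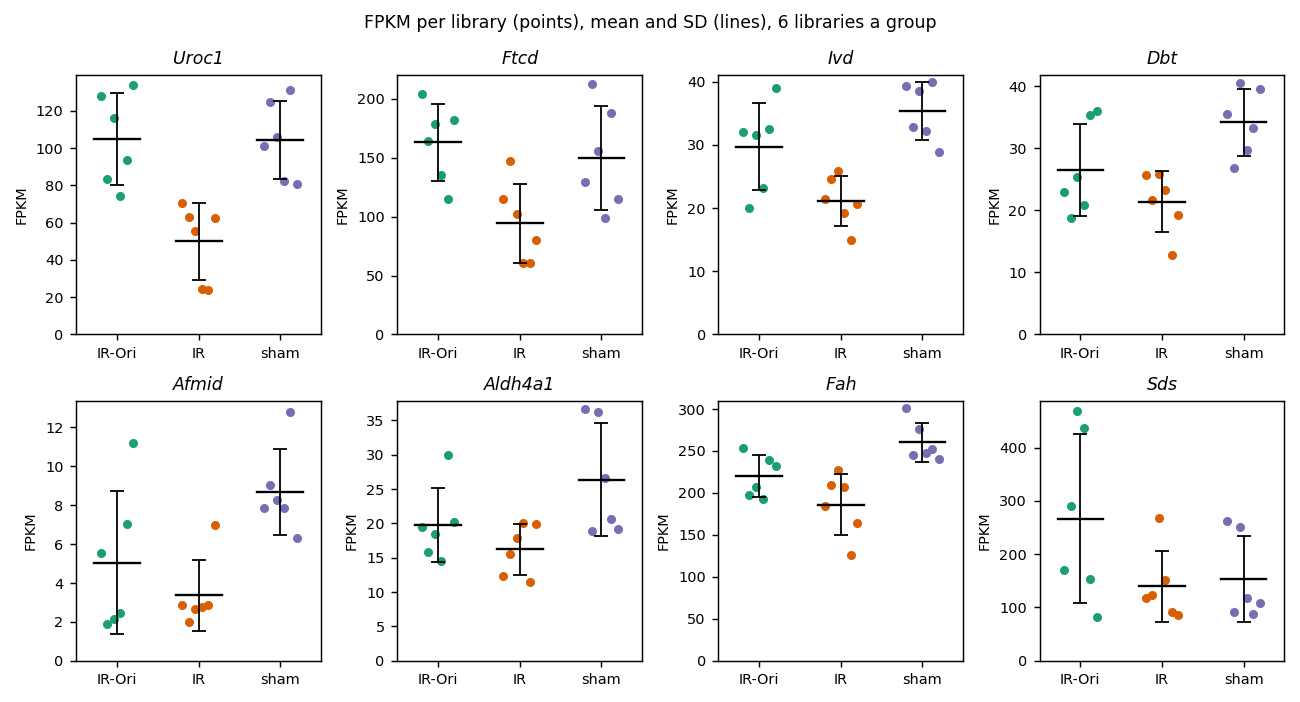
Deposited FPKM of 8 genes in each of the 18 libraries, with group means and SD as lines. The 6 IR points of Uroc1 lie at 23.8 to 70.6 FPKM, below all IR-Ori and sham points, while those of Ftcd, Aldh4a1 and Sds overlap both groups.

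The urea cycle genes did not pass. Cps1, Otc, Ass1, Asl and Arg1 encode its enzymes, Nags makes the activator of Cps1, and Slc25a15 and Slc25a13 carry ornithine and aspartate across the mitochondrial membrane. Slc25a13 (ENSMUSG00000015112, GRCm39 chr6:6041218-6217173, minus strand) had the smallest p of the 8, with a lowest, median and highest level of 17.7, 22.6 and 52.1 FPKM in IR-Ori, 16.1, 22.7 and 42.0 in IR and 21.6, 45.3 and 49.5 in sham. The IR libraries other than IR6 were at 26.2 FPKM or less and 5 of 6 sham libraries at 33.1 FPKM or more, but the log2 fold change of -0.74 ± 0.29 missed the threshold (adjusted p = 0.127). Otc had -0.79 ± 0.34 (adjusted p = 0.164). The log2 fold changes of Nags (-0.12 ± 0.16) and Asl (-0.02 ± 0.24) were held closely around 0, and those of Cps1 (-0.07 ± 0.43) and Ass1 (-0.48 ± 0.41) were not. Arg1, arginase, was at 837 ± 215 FPKM in IR-Ori, 742 ± 271 in IR and 796 ± 261 in sham. Of the 8 genes 5 had an interval between -1 and 1.

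The glutamate and transamination, serine, methionine and lysine genes had 0 calls as well. Gls2, the liver glutaminase (ENSMUSG00000044005), was at 43.5, 52.4 and 82.8 FPKM (lowest, median, highest) in IR-Ori, 21.2, 43.8 and 54.9 in IR and 35.6, 62.4 and 126 in sham, with a log2 fold change of -0.71 ± 0.30 (adjusted p = 0.152). The aminotransferases Got1, Got2, Gpt and Gpt2 and the dehydrogenase Glud1 had log2 fold changes from -0.28 to 0.14. The 8 methionine and cysteine genes, among them the S-adenosylmethionine synthetase Mat1a and the methyltransferase Gnmt, lay from -0.26 (Csad) to 0.18 (Cth), with a median of -0.02, the closest to 0 of the pathways with more than 1 gene. Gnmt (ENSMUSG00000002769) was at 89.4, 168 and 380 FPKM (lowest, median, highest) in IR-Ori, 81.8, 316 and 705 in IR and 84.1, 313 and 612 in sham, and its interval in IR against sham ran from -1.03 to 1.2. Aass, the lysine enzyme (ENSMUSG00000029695), was at 58.9, 93.7 and 168 FPKM in IR-Ori, 59.1, 79.0 and 152 in IR and 42.4, 88.7 and 126 in sham, a log2 fold change of 0.01 ± 0.32. These values bound the changes of Aass to between -0.65 and 0.67, while those of Gnmt extend past 1 in either direction.

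For IR against sham the mitochondrial share was examined as a covariate and by splitting the libraries. As a covariate it left the median of the 49 fold changes at -0.27, with 41 negative, against -0.26 and 39 without it. In the 3 IR and 3 sham libraries with a share under 15% the median of the 49 fold changes was -0.59, with 44 negative and 4 genes lower at an adjusted p under 0.05 (Prodh, Mccc2, Ivd and Otc), beside 4.11% lower of the genes tested there. In the 3 and 3 libraries of 15% or more, a split added after the first was seen, the median was -0.01, with 25 negative, and only Afmid was lower, beside 0.224% of the genes tested. The low-share IR libraries include IR4 and IR5, and without either of these 2 the full comparison called 0 of the 49. Whether the effect differs between the low-share and high-share libraries was not tested.

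The comparison of IR-Ori with IR asks what oridonin changes in the injured liver. It shares the IR libraries with the comparison above, so that low IR values enter both with opposite sign. In edgeR 0 of the 49 rose and 0 fell, against 0.596% and 3.01% of all genes. At an unadjusted p under 0.05, 5 were higher (Uroc1, Ftcd, Sds, Prodh and Ivd) and 1 lower (Gldc). Of all genes 9.81% were higher and 14.4% lower at that threshold, so that the 5 are near the background. DESeq2 called 2 higher, Uroc1 and Ftcd, beside 3.08% of all genes, and limma on log2(FPKM + 1) called 1, Uroc1, beside 0.336% of the genes it tested. Both called 0 lower. The median of the 49 log2 fold changes was 0.08, against 0.00 over all genes, and 29 intervals lay between -1 and 1, with 48.0% in all genes. With the mitochondrial share as a covariate the median was 0.22 and only 8 of the 49 were negative, against 21 without it.

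Uroc1 was the nearest to the threshold, with a log2 fold change of 1.04 ± 0.31 in IR-Ori against IR (SE, n = 6 each; adjusted p = 0.0593). All 6 IR-Ori libraries were above all 6 IR libraries by deposited FPKM, which 0.391% of all genes showed, and 0 of the 49 were lower without overlap (1.1% of all genes). By nuclear FPKM the groups overlapped for Uroc1, at 102 to 197 in IR-Ori and 26.3 to 124 in IR, and 0 of the 49 separated them (0.445% higher and 1.34% lower of all genes). Ftcd had 0.81 ± 0.27 (adjusted p = 0.0921), Prodh 0.70 ± 0.27 (adjusted p = 0.136) and Ivd 0.52 ± 0.20 (adjusted p = 0.137). The fit without IR1 called both Uroc1 and Ftcd, and the other 11 fits without a single library called neither. The 2 other histidine genes, Hal and Amdhd1, both had 0.08.

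Sds and Sdsl, for serine dehydratase and a related enzyme, had high values in some IR-Ori libraries without passing. Sds was at 82.5, 230 and 468 FPKM (lowest, median, highest) in IR-Ori, 85.2, 120 and 268 in IR and 88.0, 113 and 263 in sham, a log2 fold change of 1.01 ± 0.42 in IR-Ori against IR (adjusted p = 0.155). Only IR-Ori2, IR-Ori3 and IR-Ori4 (290 to 468 FPKM) lay above all other libraries, and IR-Ori6 held the lowest value of all 18. Sdsl (ENSMUSG00000029596) was at 7.74, 23.6 and 39.1 FPKM in IR-Ori, 12.2, 19.1 and 25.0 in IR and 8.31, 11.7 and 23.0 in sham. The same 3 IR-Ori libraries were highest for Sdsl, at 28.4 to 39.1 FPKM. Gldc, the glycine cleavage decarboxylase, had -0.88 ± 0.41 (adjusted p = 0.193), and the 3 genes of this pathway thus had unlike signs.

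Between IR-Ori and sham, 0 of the 49 were called in either direction, and 0% of all genes. At an unadjusted p under 0.05, Sdsl was higher (log2 fold change 0.92 ± 0.34, adjusted p = 0.485) and Mccc2 lower (-0.53 ± 0.21, adjusted p = 0.494), beside 6.34% higher and 3.66% lower of all genes. DESeq2 and limma called 0 of the 49, although DESeq2 called 34 genes higher and 4 lower in the whole table. By deposited FPKM 0 of the 49 separated the groups (0.171% higher and 0.0343% lower of all genes), and 0 by nuclear FPKM (0.171% and 0.00685%). In 28 of the 49 the 95% interval lay between -1 and 1, with 55.4% in all genes. For Uroc1 the difference was -0.01, with an interval from -0.64 to 0.63. For Ivd it was -0.26, from -0.68 to 0.16, and for Afmid -0.80, from -1.64 to 0.04, so that the Afmid difference is not bounded closely. The median of the 49 log2 fold changes was -0.27, against -0.01 over all genes, and 39 were negative, beside 51.1% of all genes. These 39 negative signs share the sham libraries with the 39 in IR against sham.

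The 49 genes varied widely between libraries of 1 group. The coefficient of variation of FPKM had a median of 32.0% in IR-Ori, 33.7% in IR and 33.8% in sham, and ran from 5.52% (Kmo) to 72.7% (Afmid) in IR-Ori, from 11.3% (Mccc2) to 82.1% (Cth) in IR and from 9.03% (Fah) to 71.3% (Got1) in sham. Mat1a had the highest mean level in sham and IR, Tat in IR-Ori, and Mccc1 the lowest in all 3, at 1.60 ± 0.618 FPKM in IR-Ori, 1.97 ± 0.327 in IR and 2.35 ± 1.04 in sham. After taking out the group means, the 1176 pairs of genes had a median Pearson r of 0.38 over the 18 libraries, with 938 positive. It was 0.69 within the histidine pathway and 0.60 within methionine and cysteine, and -0.05 within serine, threonine and glycine. The closest pair was Ass1 and Tdo2 (r = 0.95), from different pathways, and the most opposed was Bckdhb and Gnmt (r = -0.84). These correlations share library and depth and are a description only.

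**Figure D3:**
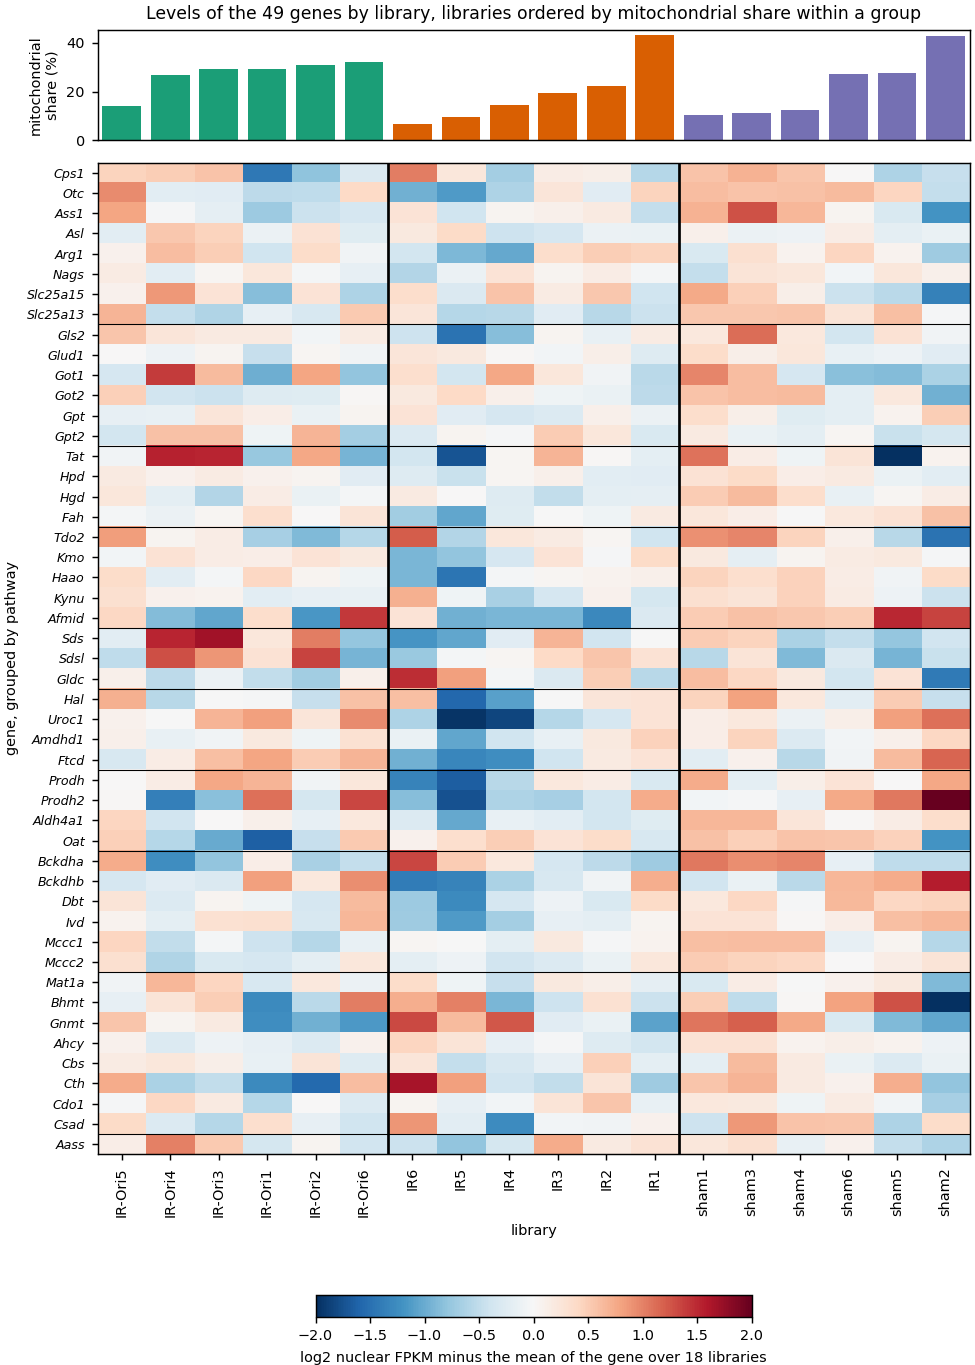
Log2 nuclear FPKM of each of the 49 genes minus its mean over the 18 libraries (colours end at -2 and 2), with the mitochondrial share of counts above. Libraries run from low to high share within IR-Ori, IR and sham. The libraries IR5 and IR4 are low for Uroc1, Ftcd and Hal, IR5 also for Prodh and Haao, and Gnmt and Bckdhb shift in opposite directions with the share in all 3 groups.

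Part of this spread followed the mitochondrial share. With the groups kept in the model, 19 of the 49 genes were lower and 3 higher in libraries with a larger share (edgeR, adjusted p under 0.05, nuclear genes only), against 22.3% lower and 20.3% higher of 14639 genes, so that 38.8% of the 49 were lower. Gnmt had the steepest slope, -0.83 ± 0.11 on the log2 scale per 10 percentage points (adjusted p = 2.58e-05). Bckdha and Bckdhb, whose products form 1 enzyme, had opposite slopes, -0.67 ± 0.10 (adjusted p = 3.97e-05) and 0.47 ± 0.07 (adjusted p = 3.95e-05). Bckdha was at 4.74 to 18.8 nuclear FPKM in IR-Ori, 6.88 to 28.5 in IR and 7.93 to 23.3 in sham, and Bckdhb at 63.4 to 152, 30.3 to 132 and 55.0 to 238. In IR, Bckdha was highest and Bckdhb lowest in IR6, the library with the smallest share. Prodh2 (0.43 ± 0.12) and Ftcd (0.31 ± 0.08) were the other 2 genes higher with the share. All 8 urea cycle and all 8 methionine and cysteine genes had negative slopes, 4 of each past the threshold. Uroc1 (0.23 ± 0.10, adjusted p = 0.0678), Ivd (0.07 ± 0.07) and Afmid (-0.04 ± 0.15) had none that passed. Fitted within a single group, slopes were negative for 31 of the 49 in IR-Ori, 25 in IR and 36 in sham. Of all nuclear genes tested, 36.6%, 39.7% and 31.5% had negative slopes in these groups. What sets the share was not tested. With it as a covariate 9 of the 49 were lower in IR against sham, all 3 of the genes above among them, beside 4.92% lower of all genes.

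**Figure D4:**
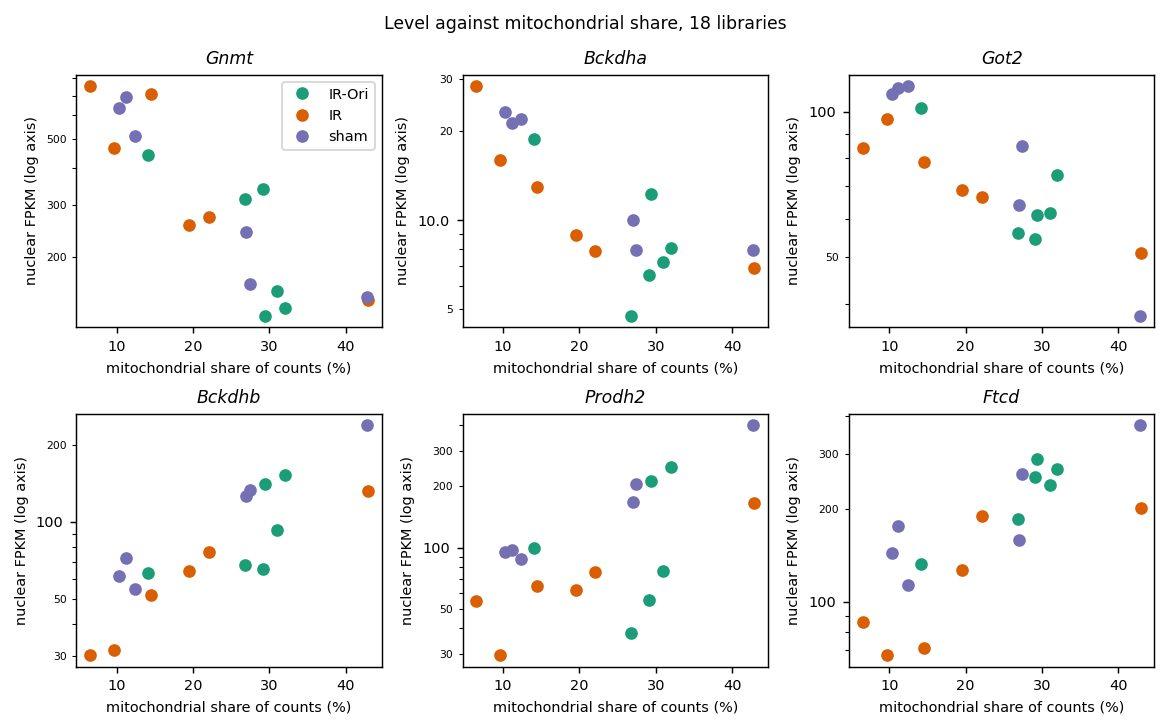
Nuclear FPKM on a log axis against the mitochondrial share of counts for 6 genes in 18 libraries, coloured by group. Gnmt, Bckdha and Got2 fall and Bckdhb, Prodh2 and Ftcd rise with the share, and the groups overlap along it.

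A further 104 genes of amino acid handling that are not among the 49 were listed by pathway, and 96 were tested. In IR against sham 6 rose and 10 fell. That is 6.25% higher and 10.4% lower, beside 5.52% and 2.36% of all genes, so that the share higher is near the background. Of 14 amino acid transporters 4 rose (28.6%), Slc7a11, Slc3a2, Slc7a5 and Slc7a1. Slc7a11, the cystine carrier, was at 0 to 0.04 FPKM in IR-Ori (0 to 9 counts), 0.09 to 0.77 in IR (18 to 155 counts) and 0 to 0.02 in sham (0 to 6 counts), a fitted log2 fold change of 5.12 ± 0.86 in IR against sham (adjusted p = 0.00211) whose size depends on the few counts in sham. Slc3a2, the partner chain of Slc7a11 and Slc7a5, averaged 8.09 ± 1.84 FPKM in IR-Ori, 15.3 ± 8.09 FPKM in IR and 7.27 ± 0.996 FPKM in sham, and rose by 0.95 ± 0.21 (adjusted p = 0.0109). Psat1 of serine synthesis rose by 3.07 ± 0.64 (adjusted p = 0.007), with 0.38 to 1.18 FPKM in IR-Ori, 0.49 to 9.89 in IR and 0.12 to 1.04 in sham. The highest IR values of Slc7a11, Slc3a2 and Psat1 were those of IR5.

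Arg2, the mitochondrial arginase and the counterpart of Arg1 among the 49, also rose in IR against sham. It averaged 0.573 ± 0.32 FPKM in IR-Ori, 1.27 ± 0.562 in IR and 0.275 ± 0.152 in sham, which is 2.13 ± 0.49 on the log2 scale for IR against sham (adjusted p = 0.013), and stayed scarce, at a median of 0.0715%, 0.2% and 0.0305% of the Arg1 level in IR-Ori, IR and sham. Leukocyte markers rose in the same libraries, and their part in Arg2 was not tested.

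The 10 that fell in IR against sham were 8 enzymes, a transcription factor and a transporter. Pipox, which oxidises pipecolic acid and sarcosine, was at 87.5 ± 14.4 FPKM in IR-Ori, 51.4 ± 15.7 in IR and 98.6 ± 5.82 in sham, and fell by 0.97 on the log2 scale (SE 0.22, adjusted p = 0.0121). By deposited FPKM all its IR libraries lay below all others. Of all genes 1.13% had every IR library below every sham library. Shmt2, the mitochondrial serine hydroxymethyltransferase, was at 52.5 ± 16.9, 31.5 ± 9.15 and 60.9 ± 14.5 FPKM in IR-Ori, IR and sham (-1.01 ± 0.23, adjusted p = 0.0131). Klf15, a transcription factor that drives amino acid breakdown genes in mice, was at 46.5 ± 5.88 FPKM in IR-Ori, 24.1 ± 10.7 in IR and 51.2 ± 8.08 in sham (-1.13 ± 0.28, adjusted p = 0.0176). Auh of leucine breakdown (-0.68 ± 0.18), Dhtkd1 of lysine and tryptophan breakdown (-1.22 ± 0.35), Qprt of NAD synthesis (-0.77 ± 0.23) and Hoga1 of hydroxyproline breakdown (-0.50 ± 0.15) fell with adjusted p of 0.0266, 0.0397, 0.0482 and 0.049. These 4 calls were lost without 1 library in 2, 7, 9 and 10 of the 12 fits, with adjusted p of up to 0.0706, 0.0832, 0.103 and 0.119. The other 3 were Shmt1, Sirt5 and the glutamine carrier Slc38a3.

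In IR-Ori against IR, Hoga1 rose, with a mean of 50.2 ± 4.88 in IR-Ori against 34.6 ± 3.26 FPKM in IR (0.58 ± 0.15, adjusted p = 0.0416), and 4 of the 96 fell. That is 1.04% higher and 4.17% lower, near the 0.596% and 3.01% of all genes. The 4 were Slc7a11 (-4.74 ± 0.84, adjusted p = 0.0058), Slc7a5 (-2.25 ± 0.49, adjusted p = 0.0165), Slc3a2 (-0.81 ± 0.21, adjusted p = 0.0393) and Psat1 (-2.22 ± 0.61, adjusted p = 0.0478). All 5 had also changed in IR against sham with the opposite sign, and both comparisons hold the IR libraries. Slc7a11 passed in every fit that left out a library and Slc7a5 in all but the fit without IR4 (adjusted p = 0.0523), whereas Hoga1, Slc3a2 and Psat1 were lost in 8, 8 and 9 of the 12, with adjusted p of up to 0.11, 0.114 and 0.172. Klf15 (0.98 ± 0.28, adjusted p = 0.053) and Pipox (0.78 ± 0.22, adjusted p = 0.0532) did not pass. By deposited FPKM all IR-Ori libraries of each lay above all IR libraries, which 0.391% of all genes showed. Such a separation can change with the total used, as it did for Uroc1. Glul, glutamine synthetase of pericentral hepatocytes, had -0.26 ± 0.34, Slc38a2 0.73 ± 0.33 and Asns -0.58 ± 0.62, and in IR against sham these 3 had -0.22 ± 0.34, -0.25 ± 0.33 and 0.00 ± 0.61. None of them passed in either comparison. Their intervals extend to both sides of 0 in most of these comparisons, and an absence of change cannot be read from them. In IR-Ori against sham 0 of the 96 were called (unadjusted, 2 higher and 14 lower, beside 6.34% and 3.66% of all genes).

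**Figure D5:**
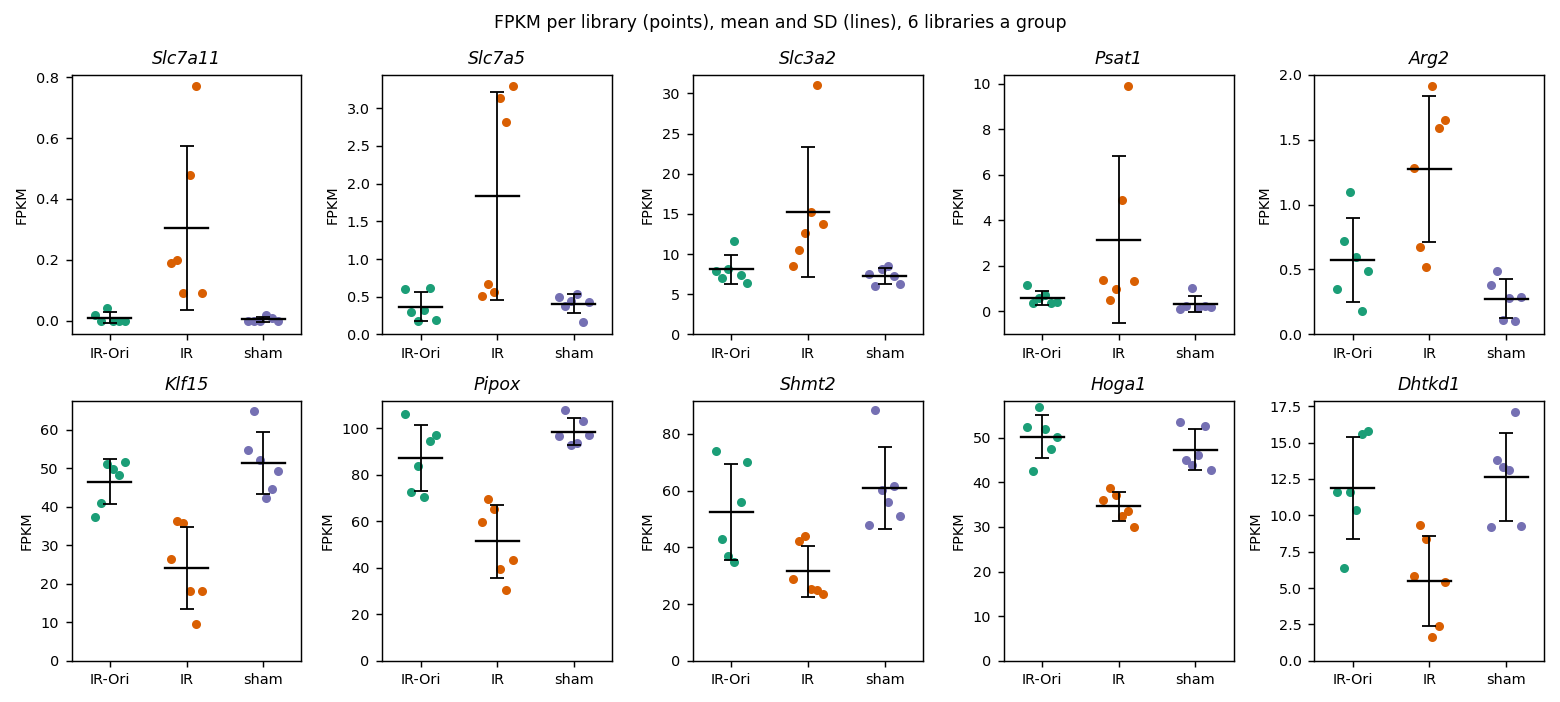
Deposited FPKM of 10 genes of amino acid transport, synthesis and breakdown outside the 49, in each of 18 libraries, with group means and SD as lines. Slc7a11, Slc7a5, Slc3a2, Psat1 and Arg2 have their highest mean in IR, and all IR libraries of Klf15, Pipox and Hoga1 lie below all libraries of the other 2 groups.

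The genes of the whole table most like the 3 that passed were sought by Pearson r of log2 CPM over the 18 libraries, among 10668 genes with a mean FPKM of at least 1. For Uroc1 these were Rilp (r = 0.95), Pipox (0.94) and Hectd3 (0.93). For Ivd they were Ptms, Slc22a30 and Pipox (0.92 each), and for Afmid Ptprd (0.94), Ces1d (0.93) and B630019A10Rik (0.93). Pipox is thus near both Uroc1 and Ivd. The r values include the differences between groups, as well as what the libraries share.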

How the data were processed

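The members and gene lists were chosen with earlier results of these data known. The submitters' processing notes list cutadapt 1.9.1, HISAT2 2.2.1, DESeq2 and the build GRCm39, with no role for each. No source used here gives the counting tool, its annotation or its strand setting. The 1 deposited table holds raw counts per gene and FPKM made by the authors, and 100% of the deposited FPKM were recovered from counts, gene size and library total within 0.0051. Nuclear FPKM were computed with the 37 mitochondrially encoded genes left out of the total.

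Genes passing filterByExpr (minimum count 10, minimum total 15; 14595 genes) were fitted with edgeR 4.0.16 in R 4.3.3: TMM scaling, a quasi-likelihood model with group over 18 libraries (15 residual degrees of freedom), two-sided tests and Benjamini-Hochberg adjustment over all genes at 0.05. The SE is the log2 fold change divided by the square root of F. The fit was also run on simulated data. These were drawn gene by gene without the variation in mitochondrial share, so that run cannot show how the fit behaves under it. Values by library are given for every gene called among the 49 and, in pathways with none, for the gene with the smallest p; Ftcd, Dbt, Sds and a few others were chosen after their values were seen. Of other lists, the 2 called genes with the smallest p per comparison and 6 genes fixed by name are given. Promoters are from RefSeq (GRCm38.p6), matched by symbol. Alternatives used DESeq2 1.42.0 and limma 3.58.1. 0 pairs of libraries of a group were identical. Same-numbered libraries of 2 groups were not treated as pairs. Mitochondrial share is the percent of counts on mitochondrially encoded genes. Listed genes without a row in the table were not analysed here, and some results are not reported here.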

Additional observations from a re-analysis of the deposited data

Results flagged for a closer look

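Gene by group sets of 6 libraries, 195 in all, were examined by Dixon's test at the 95% level. For independent sets of normally distributed values, chance would give about 1 set in 20, or 9.8 sets. The genes share libraries and vary together, and FPKM were not transformed, so that number is not an expectation for these sets. Of the 195 sets, 25 had 1 library far from the other 5. Of these, 8 were in IR-Ori5, whose mitochondrial share was the lowest of its group (14.1%): Ass1 at 885 FPKM (others 253 to 427), Tdo2 at 392 (95.3 to 202), Otc at 141 (41.7 to 76.7), Got2 at 87.5 (38.6 to 50.3), Gls2 at 82.8 (43.5 to 56.5), Aldh4a1 at 29.9 (14.5 to 20.2), Kynu at 17 (9.65 to 12.4) and Mccc1 at 2.80 (1.12 to 1.66). The library IR6, with the lowest share in IR (6.52%), was high for Tdo2 at 557 FPKM (111 to 255), Csad at 105 (21.9 to 48.0), Kynu at 24.4 (7.14 to 13.6) and Afmid at 6.99 (1.97 to 2.89). In IR, Sds was at 268 in IR3 (85.2 to 151), Oat at 132 in IR1 (278 to 344), and IR5 was high for Slc3a2 at 31.1 (8.51 to 15.2) and Asns at 5.18 (1.12 to 1.64).

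In sham, sham3 was high for Gls2 at 126 FPKM (35.6 to 68.1), Sdsl at 23.0 (8.31 to 13.3), Asns at 7.04 (0.08 to 1.55) and Psat1 at 1.04 (0.12 to 0.25). The library sham2, with the largest share of its group, held Oat at 71.5 (289 to 387), Shmt2 at 88.4 (47.9 to 61.7) and Auh at 2.82 (3.60 to 3.80). Prodh was at 25.2 in sham1 (12.3 to 16.6). In IR-Ori4, Slc3a2 was at 11.6 (6.41 to 8.16). The part of the mitochondrial share in these values was not tested.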

How the results depend on the processing

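For IR against sham, 3 of the 49 genes were lower, and 7 were with the DESeq2 test, 9 with the mitochondrial share as a covariate, 1 in libraries with a share of 15% or more (an alternative chosen after seeing the data) and 0 to 9 when a library was left out (0 without IR4 or IR5, 1 without IR2, sham3 or sham4, 5 without IR6, 9 without IR1). The count of 3 was unchanged with the replicate number as a block, in a replicate block fit that also gave 453 higher and 191 lower of all genes, against 806 and 345. Over all genes DESeq2 called 1113 higher and 705 lower and limma 390 and 204. Deviations of same-numbered libraries correlated at 0.012 to 0.418 between IR-Ori and IR (6 of 6 positive, 4 over 0.1), -0.441 to 0.335 between IR and sham and -0.36 to 0.302 between IR-Ori and sham. In no comparison was every pair over 0.1, so the numbers were not taken as a pairing. That rule cannot exclude a pairing, because differently numbered libraries were not compared. For IR-Ori against IR, higher members numbered 0, and 2 with the DESeq2 test, 1 with limma on log2(FPKM + 1) and 0 to 2 without a library; over all genes the block gave 28 higher and 135 lower, DESeq2 449 and 886 and limma 38 and 95, against 87 and 439.

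Of the other pathway genes in IR against sham, 6 were higher, and 2 with limma at either pseudocount (1 or 0.1) and 1 at a share of 15% or more (5 to 6 without a library); 10 were lower, and 16 with the DESeq2 test, 5 with no low-count filter, 5 with the replicate block, 17 with the share as a covariate, 0 at 15% or more and 4 to 17 without a library. In IR-Ori against IR, 1 was higher, and 8 with the DESeq2 test, 0 with no filter, limma with 0.1, the replicate block or only the 2 groups, and 0 to 7 without a library; 4 were lower, and 6 with the DESeq2 test, 0 with limma at either pseudocount, 1 with the block, 2 with the covariate, 1 with the 2 groups and 1 to 6 without a library. Limma tested only genes with at least 1 FPKM in at least 6 libraries, which left out Slc7a11, Slc7a5 and Arg2. Those genes could therefore not be called by limma. The causes of the other shifts were not tested, and some settings also had fewer libraries. No fold change of a called gene reversed. Among single genes of the 49, under the settings that do not leave out 1 library, 1326 values kept their call and direction, 18 gained a call, 6 lost it and 71 without a call changed sign; when a library was left out, 1614 kept both, 14 gained a call, 17 lost it and 119 without a call changed sign. Genes at few counts, such as Slc7a11, are limited by depth.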
